A study of Drosophila melanogaster with 2 samples.

Results

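The genes described here are the nuclear genes of oxidative phosphorylation in Drosophila melanogaster. They were taken by name as protein-coding genes whose symbols begin with ND-, COX, UQCR-, Sdh or ATPsyn, together with blw, which gave 89 of the 13945 protein-coding genes on the 6 chromosome arms of the annotation. Binding of the zinc finger protein Dati was measured by ChIP-seq, in which DNA bound to a protein is pulled down with an antibody and sequenced. The material was whole embryos of a dati-GFP strain aged 8 to 24 hours, and an antibody against GFP pulled down the dati-eGFP fusion protein. There was 1 group with 2 biological replicates, both compared by the authors with the same control alignment, so no conditions could be compared. The labels also hold an antibody field that names dati itself and an age field in hours that no embryo reaches. All cells of the embryo were pooled, so that strong binding in few cells and weak binding in many cannot be told apart.

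The respiratory chain sits in the inner mitochondrial membrane. Complexes I and II take electrons from NADH and succinate, complex III hands them to cytochrome c, and complex IV passes them to oxygen. Complexes I, III and IV pump protons across the membrane as they work, and complex V, the ATP synthase, lets the protons flow back to make ATP. Most subunits are encoded in the nucleus, and many fly subunits have a duplicate gene, often one used mainly in the testis, whose symbol ends in L or in L and a digit.

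Dati-eGFP summits lay near 8 of the 89 genes, a share of 8.99% (exact 95% binomial interval 3.96% to 16.95%), against 9.52% of all protein-coding genes. A gene was counted when a summit of the optimal set, the authors' thresholded set from the pooled reads, lay within 1000 bp of any of its annotated start sites. The share of the oxidative phosphorylation genes was therefore near that of genes at large, and the count is no result about them as a group. Such intervals cover counting error only, and neighbouring genes that share a peak are not independent. The 8 genes were ND-ASHI, ND-MWFE, ND-51, ND-B17 and ND-B22 of complex I, SdhA of complex II, COX5A of complex IV and blw of complex V.

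The DNA under 4 of the 8 summits is printed below on the strand of the oxidative phosphorylation gene, from the Release 6 genome whose coordinates are those of dm6. The sequences show that the peaks lay on different kinds of sequence: AT-rich DNA between divergent promoters at ND-ASHI and ND-51, a coding exon of another gene at ND-B22, and a short upstream region at ND-B17. The first 3 are windows of 101 bases centred on the summit, with any TATAAA in capitals. The ND-B17 line gives the 250 bases just before its start site, with the core of the promoter element called motif 1, GGTCACAC, in capitals.
ND-ASHI (chrX:6679315-6679415, minus strand): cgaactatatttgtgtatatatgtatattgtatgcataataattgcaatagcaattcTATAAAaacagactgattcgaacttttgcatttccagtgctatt
ND-51 (chr2L:6062810-6062910, minus strand): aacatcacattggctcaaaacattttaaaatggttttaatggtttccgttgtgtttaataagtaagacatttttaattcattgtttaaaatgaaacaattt
ND-B22 (chr2L:13371555-13371655, minus strand): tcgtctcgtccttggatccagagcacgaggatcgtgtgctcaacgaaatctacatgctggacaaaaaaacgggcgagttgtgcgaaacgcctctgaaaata
ND-B17 (chr2L:15751079-15751328, minus strand): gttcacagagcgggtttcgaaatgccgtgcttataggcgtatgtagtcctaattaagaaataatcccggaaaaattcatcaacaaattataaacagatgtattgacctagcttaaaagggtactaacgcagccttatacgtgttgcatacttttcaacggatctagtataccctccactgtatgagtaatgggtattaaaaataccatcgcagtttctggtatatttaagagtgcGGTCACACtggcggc

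ND-ASHI (FBgn0029888) had the highest value of the 89 genes. It encodes an accessory subunit of the membrane arm of complex I, known in mammals as NDUFB8. Its peak on chromosome X, from 6679233 to 6679496, had a pooled signal of 165.9 and was ranked 221 of the 1892 peaks of the optimal set. Signal is the authors' own value for each peak on a scale that no label or header states, and it serves here only to rank and describe places within a list. The ranked lists of the single replicates held this peak at 92.1 in replicate 1 and 73.6 in replicate 2, and it was in the thresholded set of each. The summit lay 247 bp upstream of the nearest ND-ASHI start and 275 bp upstream of a start of Fum1, which encodes fumarase of the tricarboxylic acid (TCA) cycle and runs the other way. By the annotation it also lay inside an intron of a longer Fum1 transcript. The TATAAA in its window lies near the summit itself, well away from both start sites.

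ND-51 (FBgn0031771) encodes the core subunit of complex I that binds NADH and the flavin cofactor. Its peak on chromosome arm 2L, from 6062728 to 6062991, had a pooled signal of 72.3 and rank 1096. The value was 41.3 in replicate 1 and 24.1 in replicate 2, and neither replicate's own thresholded set held it. The peak's irreproducible discovery rate (IDR), which is low where the lists being compared rank a peak alike and near the top, was 0.00226 in the pooled list. The optimal set held peaks with an IDR of 1% or less. The summit lay in intergenic DNA, 103 bp upstream of ND-51 and 129 bp upstream of the divergent gene CG13994. No motif searched was found in its window, 23.8% of which was G or C, the lowest share among the 8.

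ND-B17 (FBgn0001989) and ND-B22 (FBgn0032511) encode accessory subunits of the membrane arm, known in mammals as NDUFB6 and NDUFB9. The ND-B17 peak on 2L, from 15751027 to 15751290, stood at rank 1365 with a pooled signal of 63.0, and its IDR was 0.00669. It was at 22.6 in replicate 1, and the list of replicate 2 had no place within 1000 bp of the start. Its summit was 81 bp upstream of ND-B17, and the motif 1 core printed above began 15 bp upstream. The ND-B22 peak on 2L, from 13371473 to 13371736, had a pooled signal of 60.8 and rank 1449. It stood at 21.3 in replicate 1 and 39.2 in replicate 2, and of the thresholded sets of single replicates only that of replicate 2 held it. The summit lay 495 bp upstream of ND-B22, within a coding exon of Bdp1, a gene for a factor of RNA polymerase III, and no start of another protein-coding gene lay within 1000 bp.

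COX5A (FBgn0019624) encodes a structural subunit of cytochrome c oxidase, complex IV. Its peak on 3R, from 11819471 to 11819734, had a pooled signal of 67.3 and rank 1245. Of the 7 peaks with a place in both replicates, the values lay farthest apart here, with 15.6 in replicate 1 and 45.9 in replicate 2. These values come from separate lists, so the gap is a description only. The peak's score, an IDR scaled to at most 1000, was 62 in replicate 1 and 1000 in replicate 2. Only replicate 2 held the peak in its own thresholded set. The summit fell in a COX5A exon, 4 bp downstream of the nearest COX5A start and 244 bp downstream of the start of its canonical transcript. It was also 183 bp upstream of a start of glo on the other strand, which encodes an RNA-binding protein that represses translation. Of the 8 summits, this was the only one downstream of the start of its gene.

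ND-MWFE (FBgn0085468), an accessory subunit known in mammals as NDUFA1, had the second highest value. Its peak on 2R, from 13158328 to 13158591, had a pooled signal of 120.8 and rank 422. The replicates held it at 52.2 and 59.5 in replicates 1 and 2, and both thresholded sets included it. The summit was 206 bp upstream of ND-MWFE but only 15 bp upstream of a start of the divergent gene TppII, which encodes a large peptidase. By the annotation it also lay inside an intron of a longer TppII transcript. Among the 8 genes, only ND-ASHI and ND-MWFE had pooled signals above 78.6, the median of the whole optimal set.

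SdhA (FBgn0261439) encodes the flavoprotein of succinate dehydrogenase, the enzyme that is both complex II and a step of the TCA cycle. Its peak on 2R, from 19396701 to 19396964, had a pooled signal of 70.8 and rank 1138, with 42.0 in replicate 1 and 31.5 in replicate 2. Only replicate 1 held it in its own thresholded set. The summit was the farthest from its gene, 862 bp upstream of SdhA on the far side of cer, a gene for an inhibitor of cysteine proteases whose start was 61 bp away. It lay in an exon of the antisense transcript asRNA:CR45925. At a limit of 500 bp SdhA would not be counted.

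blw (FBgn0011211) encodes the alpha subunit in the catalytic head of the ATP synthase. Its peak on 2R, from 22798816 to 22799079, had a pooled signal of 59.8 and rank 1494, the lowest of the 8. The signals were 28.4 and 26.9 in replicates 1 and 2, but the scores were 682 and 134. Neither replicate held the peak in its own thresholded set. The summit was 151 bp upstream of blw and 659 bp upstream of the divergent gene CG42260.

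**Figure D1:**
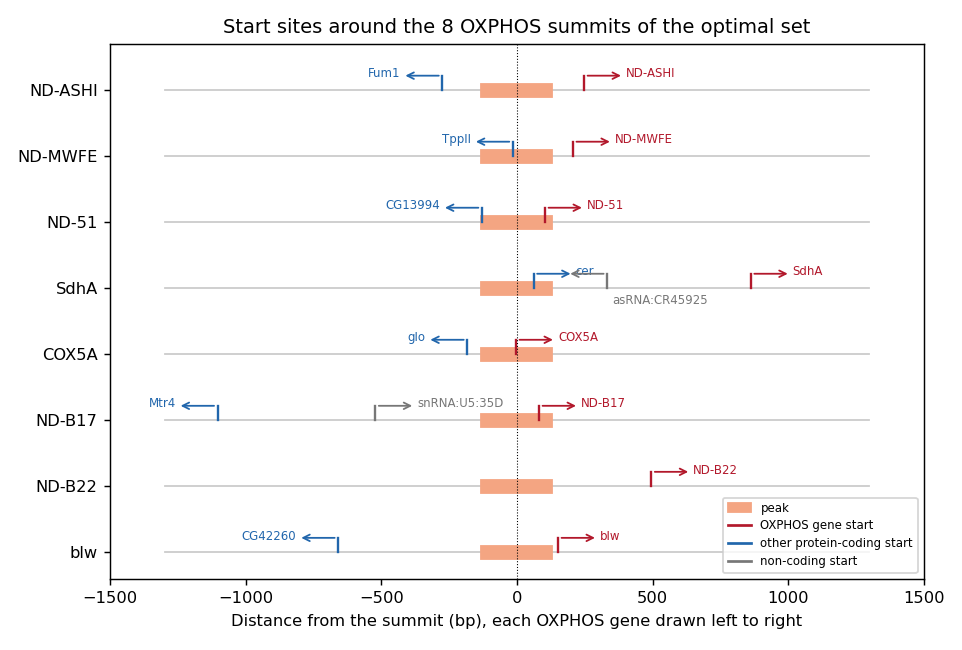
Map of the 8 peaks near oxidative phosphorylation genes, with distance in bp from the summit on the x axis and 1 row for each gene, drawn so that the gene runs left to right. Boxes are the peaks, and bent arrows are the start sites and directions of the gene itself (red), of other protein-coding genes (blue) and of non-coding genes (grey), 1 start for each gene, the nearest to the summit. The summit lies upstream of its gene in 7 rows, and a start of TppII or cer is nearer than that of ND-MWFE or SdhA.

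The peaks differed in how they stood in the single replicates. Only 2 of the 8 were in the thresholded sets of both replicates (ND-ASHI and ND-MWFE), 3 were in those of neither (ND-51, ND-B17 and blw), and 5 were in the conservative set, which the authors built from the paired replicates (5.62% of the 89 genes, against 8.77% of all protein-coding genes). The thresholded set of replicate 1 alone held a summit near 3 of the 89 genes (3.37%), against 6.47% of all genes, and that of replicate 2 near 4 (4.49%), against 4.98%. The median optimal signal was 69.0 over the 8 genes and 86.4 over the 1327 genes with such a summit. The 8 peaks were therefore mostly in the lower part of the set, and 6 of them had signals below the set's median.

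**Figure D2:**
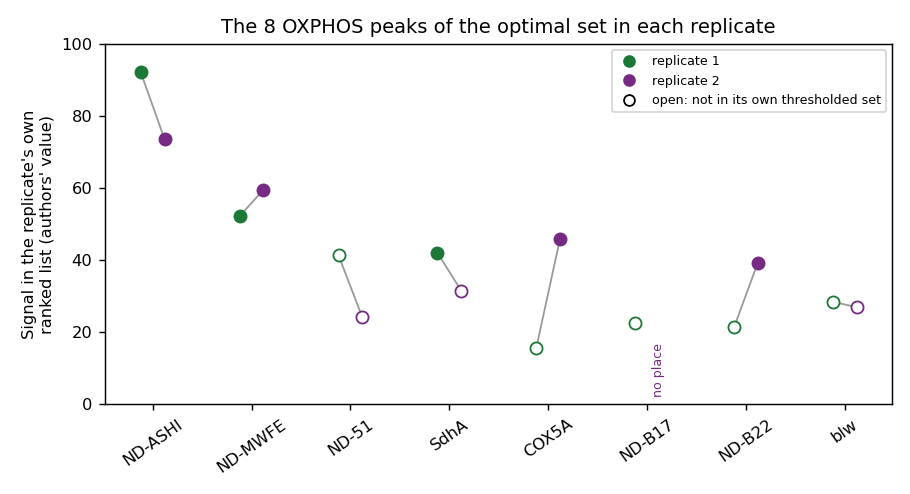
Signal of the 8 peaks (authors' value, y axis) in the ranked list of replicate 1 (green) and replicate 2 (purple), joined by a line for each gene on the x axis. Open circles mark a peak missing from that replicate's own thresholded set, and "no place" marks ND-B17 in replicate 2. ND-ASHI and ND-MWFE are filled in both replicates, and COX5A shows the widest gap, 15.6 against 45.9.

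Below the thresholded set, the ranked lists hold a place near almost every gene, and they served to describe the other 81 genes. In the pooled ranked list, 77 of the 89 genes had a place within 1000 bp of a start site (86.5%), against 93.3% of all protein-coding genes. The median of the highest signals was 29.97 over these 77 genes and 30.22 over the 13012 genes of the genome with a place. The corresponding medians were 16.3 over oxidative phosphorylation genes and 16.7 over all genes in replicate 1, and 18.3 and 17.3 in replicate 2. The medians of the pathway and of all genes were thus close in each list.

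By complex, optimal summits lay near 5 of 40 genes of complex I (12.5%, exact 95% interval 4.19% to 26.8%), 1 of 8 of complex II (12.5%, 0.316% to 52.7%), 0 of 9 of complex III (upper bound 33.6%), 1 of 16 of complex IV and 1 of 16 of complex V (6.25% each, 0.158% to 30.2%). Every one of these intervals includes the 9.52% of all genes. Subunits with other symbols, such as Cyt-c1 and RFeSP of complex III and sun of complex V, are outside these counts. The median pooled signals were 28.2 in complex I, 27.4 in complex II, 26.5 in complex III, 34.8 in complex IV and 31.6 in complex V. Ranges within a complex were much wider than the gaps between these medians, from 5.3 to 165.9 in complex I alone. The order of the complexes changed with the distance allowed: within 250 bp of a start site the median was 28.6 in complex I and 22.5 in complex IV. It also changed with the library: in replicate 1 complex V had the highest median (20.5) and complex III the lowest (13.6), whereas in replicate 2 complexes I and IV were highest (both 18.9) and complex II lowest (12.2).

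**Figure D3:**
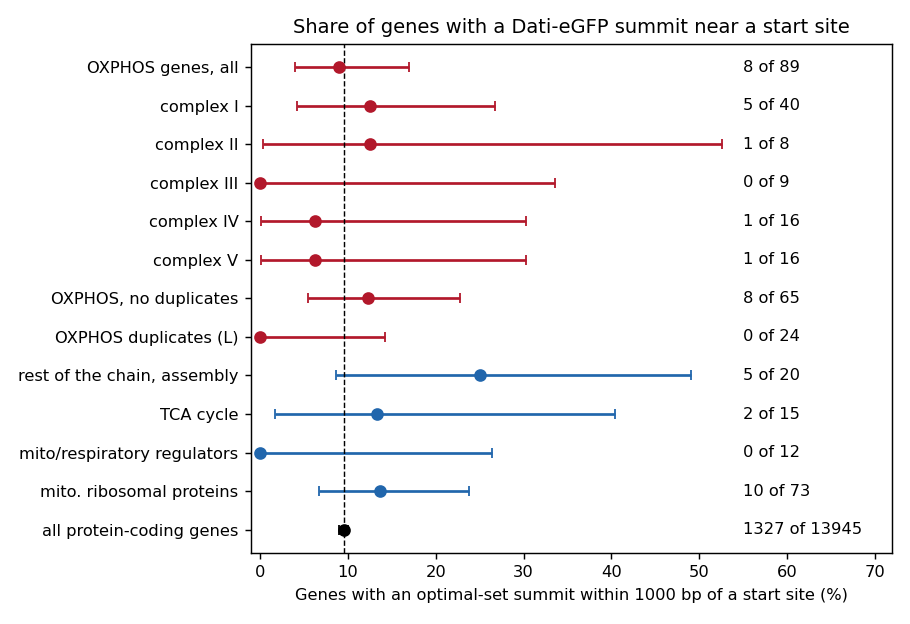
Share of genes with a summit of the optimal set within 1000 bp of a start site (x axis, percent) for the 89 genes, each complex, duplicate genes, the rest of the pathway and all protein-coding genes (y axis). Points are shares, bars are exact 95% binomial intervals, the counts stand at the right, and the dashed line marks 9.52% of all genes, which lies inside the bars of all groups drawn.

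**Figure D4:**
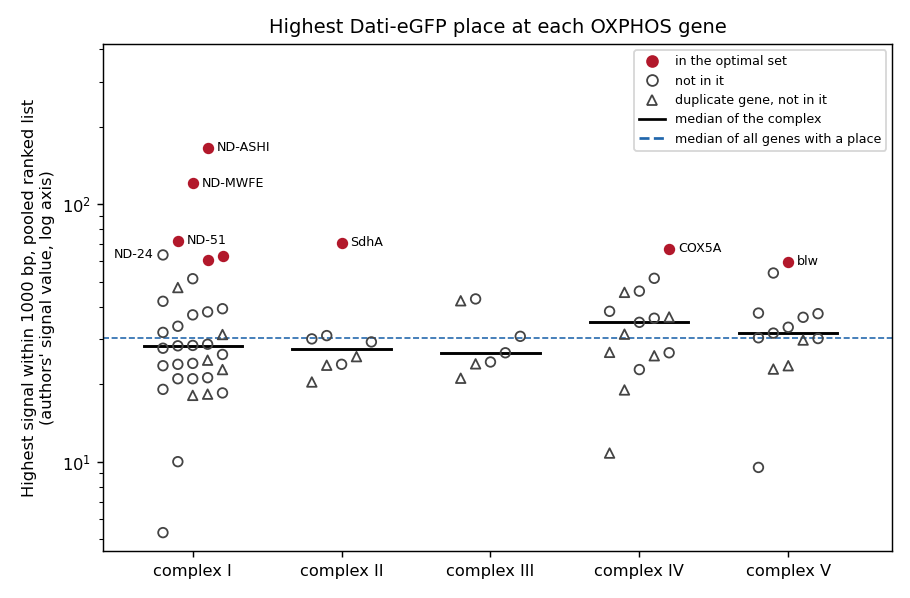
Highest pooled signal within 1000 bp of a start site (authors' value, log y axis) for each of the 77 genes with a place, by complex. Filled red circles are in the optimal set, open symbols are not, triangles are duplicate genes, black bars are medians of the complex and the dashed line is the median of all genes with a place, 30.2. Most genes of every complex lie around that line, and ND-24 stands among the filled circles although it is not in the set.

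In complex I the core subunits carry the electrons and the accessory subunits surround them. Of the 7 nuclear core genes on the list only ND-51 had an optimal summit (14.3%, exact interval 0.361% to 57.9%). Of the 27 other genes that are not duplicates 4 had one (14.8%, 4.19% to 33.7%). These shares were close to each other, and both intervals include the 9.52% of all protein-coding genes. ND-24, a core iron-sulfur subunit on the X chromosome, was the nearest miss. Its place, 51 bp downstream of its start, had a pooled signal of 63.6, with 20.3 in replicate 1 and 38.0 in replicate 2. That signal was higher than at ND-B17, ND-B22 and blw, but the place had a score of 826 and an IDR of 0.0102, just under the lowest score of the optimal set, 830 (of at most 1000). ND-B12 followed with a pooled signal of 51.4. At the low end, the core genes ND-75 and ND-23 had pooled signals of 21.2 and 23.6, and ND-20, ND-30 and ND-49 had no place in the pooled list.

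The other genes of complex II stood close together. Sdhaf3, an assembly factor, had a pooled signal of 30.9, SdhB, the iron-sulfur subunit, 30.0, and the membrane anchors SdhD and SdhC 29.2 and 23.9. Complex III, as taken by symbol, had no optimal summit. Its highest pooled signals were 42.9 at UQCR-Q, 42.2 at UQCR-11L and 30.7 at UQCR-14, and the large core proteins UQCR-C1 and UQCR-C2 stood at 26.5 and 24.4. The places of UQCR-Q, UQCR-11L and UQCR-14 were 710, 871 and 938 bp upstream of the start, and that of UQCR-C2 312 bp upstream. Pooled places as far out were also found in other complexes, such as ND-B14.5A at 907 bp, COX6AL at 923 bp and ATPsynD at 936 bp upstream.

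In complex IV, COX5B followed COX5A with a pooled signal of 51.6, 299 bp upstream of its start, and like COX5A it was lower in replicate 1 (16.3) than in replicate 2 (36.7). COX7C came next at 46.0, 189 bp upstream, but its score was only 74, far below the 698 of COX5B. In complex V, ATPsynCF6, a subunit of the stalk, had 54.1 at 829 bp upstream, and ATPsyngamma, the turning shaft of the enzyme, 37.8 at 38 bp upstream. Of the 4 genes blw, ATPsynbeta, ATPsyngamma and ATPsyndelta, which were listed together, only blw had an optimal summit (25%, exact interval 0.631% to 80.6%). ATPsyndelta had a pooled signal of 9.5 and ATPsynbeta had no place. None of the 8 other complex V genes that are not duplicates had an optimal summit (exact upper bound 36.9%). Both intervals include the 9.52% of all protein-coding genes.

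The 24 duplicate genes had no optimal summit (0 of 24, exact upper bound 14.2%), against 8 of the 65 other genes (12.3%, 5.47% to 22.8%). The intervals overlap, and both include the 9.52% of all protein-coding genes. Their median pooled signal was 24.4, against 31.6 for the genes that are not duplicates, and their values ran from 10.8 to 47.5. Places were sought around every annotated start, and most duplicates had 1 start, whereas many of the other genes had 2 or 3. The highest duplicates, ND-20L and COX7AL2, had 2 and 3 starts. Whether the number of starts bears on the difference was not tested. Of the 24, 20 could be paired with the gene whose symbol lacks the ending. The duplicate had the lower pooled signal in 12 pairs, such as ND-51L1 and ND-51L2 (18.1 and 31.2, against 72.3 at ND-51) and SdhAL (25.6, against 70.8 at SdhA), and COX4L had no place where COX4 had 38.4. It had the higher value in 1 pair, COX7AL2 at 45.5 against 26.5 at COX7A. Among the 12 pairs the gap was small at SdhCL, with 23.7 against 23.9 at SdhC. All of the duplicates' places, and most of those of their partners, lay outside the optimal set. In 6 pairs the duplicate had a place and the other gene had none, among them ND-20L at 47.5, UQCR-11L at 42.2 and ATPsynGL at 29.7.

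Some genes had a pooled signal of 40 or more and no optimal summit. They are listed only as a description, because the share of all protein-coding genes at that limit was not counted. With ND-24 they were ATPsynCF6, COX5B, ND-B12, ND-20L, COX7C, COX7AL2, UQCR-Q, UQCR-11L and ND-SGDH. Their scores ran from 74 to 826, and the IDR from 0.662 to 0.0102. Of these genes, COX7C had an optimal summit 1789 bp from its start, and ATPsynbetaL, with a pooled signal of 23.6, had one at 1726 bp. These 2 were the only genes that a limit of 2000 bp added, which made 10 of 89 (11.2%), against 12.4% of all genes.

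The other end of the range held 12 genes with no place in the pooled list. ATPsynbeta and ND-49, the only 2 on chromosome 4, had no place in either replicate's list. COX4L and ND-MLRQ, on other chromosomes, had none either. ATPsynG had a place of 23.5 in replicate 1 only. Over all 89 genes the median distance to the nearest optimal summit was 15130 bp, against 19570 bp for all protein-coding genes, and 53 of the 89 (59.6%) had none within 10000 bp, against 66.9% of all genes.

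Across the 63 genes with a place in the lists of both replicates, the signals of the replicates had a Pearson r of 0.706 and a Spearman rho of 0.336, against 0.911 and 0.489 across 11544 genes of the genome. These are descriptions across genes that share libraries and a control. The list of replicate 1 had a place near 78 of the 89 genes (87.6%), against 90.4% of all protein-coding genes. That of replicate 2 had one near 69 (77.5%), against 88.3%.

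Start sites close to those of other genes were common. Of the 89 genes, 52 (58.4%) had a start of another protein-coding gene within 1000 bp, against 42.9% of all genes. Optimal summits lay near 6 of these 52 (11.5%) and near 2 of the other 37 (5.41%). Over all genes the shares were 13.9% of those with such a neighbour and 6.22% of those without. A summit between 2 starts is counted for both genes, and these data do not tell which of them it belongs to. Counting a peak only for the gene with the nearest start left 6 of the 89 genes (6.74%), without ND-MWFE and SdhA, against 6.92% of all genes.

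Both strands were searched for 9 motifs. They were DRE (TATCGATA), the E-box CACGTG, a second kind of E-box with the letters CAGCTG, the motif 1 core (GGTCACAC) and the core of the site of ewg, the fly relative of NRF-1 (CGCATGCG). The others were an ETS site (CCGGAAG), the GAGAG of sites for GAGA factor, the TATA box letters TATAAA, and the NRG element, which has been reported at fly nuclear genes of the respiratory chain. No motif contained another. In the windows of 101 bases around the 8 summits, only TATAAA was found, in 3 (37.5%; ND-ASHI, ND-MWFE and COX5A), against 18.9% of the 1023 optimal summits near protein-coding starts. The median share of G and C was 31.2% in these windows and 34.7% in the 1023.

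In promoters, taken as the 250 bases before to 50 after the canonical start, the motif 1 core stood in 17 of the 89 (19.1%), against 7.54% of all 13944 promoters. Among the 8 genes with a summit it stood in those of COX5A, ND-B17 and ND-MWFE, but in none of their summit windows. Other shares were closer to those of all promoters: 8.99% against 8.94% for DRE, 25.8% against 17.9% for CAGCTG, 4.49% against 4.26% for CACGTG, 24.7% against 30.2% for GAGAG, 49.4% against 45.3% for TATAAA and 4.49% against 3.23% for the NRG element. The ewg core and the ETS site stood in none of the 89, against 0.667% and 1.08% of all promoters. A match is only a run of letters and says nothing on whether a factor bound there.

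Genes that work beside the complexes but that the symbols did not take had some stronger peaks. Of 20 other genes of the chain, its carriers and its assembly, 5 had an optimal summit (25%, exact 95% interval 8.66% to 49.1%). The highest was at CIA30, an assembly factor of complex I, with a pooled signal of 696.2 and rank 3 in the whole optimal set. Replicates 1 and 2 held it at 369.2 and 341.7. That summit was 123 bp upstream of CIA30 and 97 bp upstream of the divergent CG7601. The genes of cytochrome c, the carrier between complexes III and IV, both had a summit: Cyt-c-p at 180.6, 916 bp downstream of its start, and Cyt-c-d at 176.1, 399 bp downstream and 165 bp upstream of CG31808. Ttc19, an assembly factor of complex III, had 74.6 and shared its summit with Acn, and Cox17, a copper chaperone of complex IV, had 61.4. CIA30, Cyt-c-p and Cyt-c-d thus each had a higher signal than ND-ASHI, the highest of the 89 genes at 165.9.

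Of 15 TCA cycle genes 2 had an optimal summit: Fum1, by the peak it shares with ND-ASHI, and Idh3g, a subunit of isocitrate dehydrogenase, with 114.4. None of 12 regulators of mitochondrial and respiratory genes had one (exact upper bound 26.5%), and the highest pooled signals among them were 63.8 at ERR and 53.1 at cnc. The genes of mitochondrial ribosomal proteins, whose ribosomes make the mitochondrially encoded subunits, had optimal summits near 10 of 73 (13.7%, 6.77% to 23.8%). The highest 6 were mRpS23 (644.3), mRpS10 (621.3), mRpL41 (611.8), mRpL23 (400.8), mRpS2 (191.4) and mRpL20 (167.2). All 6 were above the highest value of an oxidative phosphorylation gene. All 6 summits also lay within 1000 bp of a start of another gene. That start was the nearer one for CenG1A at mRpS23 (92 against 400 bp) and Art3 at mRpS10 (114 against 143 bp). It was also nearer for Mon1 at mRpS2 (47 against 175 bp) and Icmt at mRpL20 (158 against 241 bp), but not at mRpL41 and mRpL23. Each of these lists had an interval that includes 9.52%. levy, a complex IV subunit with no COX symbol that was added to the lists later, had a summit of 57.3 which it shared with wmd, and cype, another such subunit, had only a pooled place of 15.9.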

How the data were processed

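Both replicates form 1 group, per the labels, and no test between groups was possible. What the authors deposited were lists of peaks, in dm6 coordinates by the labels: ranked ones for each replicate and for the pooled and paired reads, and thresholded sets. The deposited signal value, the score (an IDR scaled to at most 1000) and the −log10 of the IDR were used as the authors gave them. No label or header names the aligner, the caller or the scale of the signal. Read depth is unknown, and 16 unnamed columns were not used.

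Summits on 6 chromosome arms were assigned to every protein-coding gene (Ensembl release 115, BDGP6.54) with a start site within 1000 bp, with Python 3.11.15, pandas 2.3.3, NumPy 2.4.6 and SciPy 1.17.1. The assignment was tested on simulated data. Intervals are exact Clopper-Pearson at 95%. Genes were named by a rule: those with an optimal summit, the 3 highest of each complex, those 1001 to 2000 bp from an optimal summit, and sharing neighbours. Of the genes without a pooled place, which exceeded the number to be named, those picked out were chosen after their values were seen, as were other low or near-threshold genes, levy and cype. The genes and lists were chosen with earlier results of these data known. Of the listed names, Ecsit had no match. Alternatives were other distances, sets, lists and start sites, and each replicate left out.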

Additional observations from a re-analysis of the deposited data

How the results depend on the processing

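The count of 8 genes stood at 6 (6.74%, against 5.79% of all genes), 7 (7.87%, against 7.59%) and 10 (11.2%, against 12.4%) with limits of 250, 500 and 2000 bp. It was 8 when 61 places of the same score were added back (8.99%, against 9.75%), 5 in the conservative set (5.62%, against 8.77%) and 2 in the stronger part of the optimal set, cut at its median (2.25%, against 5.5%). With replicate 2 left out it was 3 (3.37%, against 6.47%), and with replicate 1 left out it was 4 (4.49%, against 4.98%). Complex I had 3 in the conservative set, 2 in the stronger part and 2 to 3 without a replicate. Complex II had 0 at 250 and 500 bp, 0 in the stronger part, 0 by the nearest start and 0 to 1 without a replicate. Complex IV had 2 at 2000 bp, 0 in the conservative set and in the stronger part, and 0 to 1 without a replicate. Complex V had 2 at 2000 bp, 0 in the stronger part and 0 without either replicate. Complex III had 0 under every setting tried.

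The median pooled signal of 29.97 was 23.4 at 250 bp, 24.2 at 500 bp, 33.9 at 2000 bp, 31.6 without duplicates and 27.6 with absent places counted as 0. In the lists of single replicates, which are on their own scale, it was 16.3 to 18.3. By complex the corresponding values were 32.0 at 2000 bp, 25.4 with absent places as 0 and 15.9 to 18.9 in single replicates for complex I. For complex II they were 19.5, 23.8 and 30.4 at 250, 500 and 2000 bp, 29.97 without duplicates and 12.2 to 15.8 in single replicates. Complex III gave 21.1 at 250 and at 500 bp, 31.2 at 2000 bp and 13.6 to 16.8. Complex IV gave 22.5 at 250 bp, 37.2 without duplicates and 16.3 to 18.9. Complex V gave 22.9 at 250 bp, 37.6 at 2000 bp, 34.8 without duplicates and 17.9 to 20.5. The cause was not tested. No paired analysis was possible because there is 1 group. The unknown read depth limits all statements on places absent from a list.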
